A study of Rattus norvegicus and Ovis aries with 113 samples.

Results

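The 9 genes Fshr, Lhcgr, Amh, Amhr2, Inha, Inhba, Inhbb, Fst and Foxl2, which encode hormones, receptors and a transcription factor of ovarian granulosa cells, were followed through RNA-seq count tables of rat and sheep reproductive tissue and brain. They were taken by symbol, in rat spelling from the rat tables and in capitals from the sheep tables, and all 9 were found among 38675 rat entries and all 9 among 31304 sheep entries. The rats were Sprague Dawley. From 14 female rats the ovary and the whole brain were sequenced, and from 15 male rats past puberty the whole brain and a sperm sample, which the design text describes as collected seminal fluid. The 5 male sheep, all puberty and numbered 687, 688, 690, 694 and 699, gave a sperm sample and 10 brain regions each: the hippocampus (Hip), cerebellum (CB), pons and basal ganglia (BG), and the entorhinal (EC), visual (VC), motor (MC), frontal (FC), prefrontal (PC) and posterior parietal (PPC) cortex. No animal was treated, no genotype was altered, and the labels give neither the age nor the cycle stage of the female rats. Each library came from 1 animal, so the p-values measure the spread between libraries. The 50 sheep brain libraries come from 5 sheep and are treated as independent in the main fit.

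Granulosa cells surround the oocyte in the follicle. Follicle-stimulating hormone from the pituitary acts on them through the receptor Fshr, and luteinizing hormone acts through Lhcgr on theca cells, on granulosa cells of large follicles and on the corpus luteum. Granulosa cells secrete anti-Müllerian hormone (Amh), which signals through Amhr2, and the inhibins, which pair the alpha subunit Inha with a beta subunit, Inhba or Inhbb, and lower pituitary secretion of follicle-stimulating hormone. Beta subunits without Inha form the activins, follistatin (Fst) binds and neutralises activin, and the transcription factor Foxl2 maintains granulosa cell identity.

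In the GRCr8 rat assembly the RefSeq annotation places Fshr at chr6:10952329-11160288 and Lhcgr at chr6:11415361-11480834. Amh lies at chr7:9557451-9559867 and Amhr2 at chr7:135454517-135470183. Inha lies at chr9:84443109-84446010, Inhba at chr17:53787159-53810942 and Inhbb at chr13:33083671-33089373. Fst lies at chr2:47856345-47863670 and Foxl2 at chr8:108392466-108395553. Amhr2 overlaps the annotated non-coding gene LOC134479584 and Fst overlaps LOC120100717. Whether the counting used strand is not given in the sources used here, so reads of these partners may not be told apart.

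Since the ovarian levels below turn on a hormone receptor, a hormone and a hormone subunit, the 250 bases before the RefSeq start of Fshr, Amh and Inha are shown, in the direction of the gene (GRCr8). The Fshr window is chr6:10952079-10952328 on the plus strand, the Amh window chr7:9559868-9560117 on the minus strand and the Inha window chr9:84442859-84443108 on the plus strand. Capitals mark AAGGTCA, the core of the element that the orphan receptors Nr5a1 and Nr5a2 are known to bind, in Amh, and CGTCA, the reverse of TGACG, the core of the cAMP response element, in Inha.

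Fshr: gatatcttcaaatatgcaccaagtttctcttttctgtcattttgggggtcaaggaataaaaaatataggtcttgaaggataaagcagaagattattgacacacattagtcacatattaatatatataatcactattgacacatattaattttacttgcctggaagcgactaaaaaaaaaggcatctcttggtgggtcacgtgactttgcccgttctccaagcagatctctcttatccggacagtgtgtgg
Amh: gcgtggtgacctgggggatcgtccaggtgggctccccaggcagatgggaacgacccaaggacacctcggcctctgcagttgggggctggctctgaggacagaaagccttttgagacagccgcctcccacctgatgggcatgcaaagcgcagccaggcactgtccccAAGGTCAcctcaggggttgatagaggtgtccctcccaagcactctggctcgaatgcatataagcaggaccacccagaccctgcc
Inha: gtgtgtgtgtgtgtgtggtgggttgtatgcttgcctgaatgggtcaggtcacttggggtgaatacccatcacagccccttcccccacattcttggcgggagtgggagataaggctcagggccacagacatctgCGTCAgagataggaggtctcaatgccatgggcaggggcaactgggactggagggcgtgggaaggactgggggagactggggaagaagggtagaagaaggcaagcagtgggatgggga

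The table of promoters holds 7 of the 9 genes. The windows of Amhr2 (chr7:135457672-135457921) and Inhba (chr17:53804509-53804758) lie inside the gene spans given above. That of Lhcgr (chr6:11415165-11415414) runs into its span. For these genes the window is not the sequence just before the span, so a missing motif says nothing of that sequence. Searched on both strands, AAGGTCA was in 3.99% of all 33469 rat promoter windows of this length and, among the 7, in Amh, where it begins 84 bases before the start on the strand of the gene. The longer CAAGGTCA, which contains it, was in 1.33% of windows and at the same place in Amh. TGACG was in 18.2% of windows and, among the 7, in Inha, on the other strand 117 bases before the start. AGATAA, the letters of a GATA element, was in 10.3% of windows and, among the 7, in Inha. The full cAMP response element TGACGTCA was in 1.59% of windows and in none of the 7. The Fshr window held none of these letters and no TATAAA or GGGCGG, and its base composition was 36.8% G and C, against 62.4% in Amh, 58.4% in Inha and 86.8% in Inhbb.

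Levels are given as CPM, counts per 1000000 of the counts left after the most abundant entries were set aside, 3 ribosomal RNA entries in rat and 4 entries without a gene name in sheep. The entries set aside took 7.24% to 12.8% of an ovary library, 2.68% to 86.9% of a female and 2.39% to 83.1% of a male rat brain library, 1.68% to 28.9% of a rat sperm library, 3.89% to 14.6% of a sheep brain library and 22.4% to 85.2% of a sheep sperm library. Total counts per library, divided by 1000000, ran from 50.5 to 60.3 in ovary, 38.2 to 119 in rat brain, 13.7 to 65.1 in rat sperm, 46.7 to 72.4 in sheep brain and 13.7 to 65.1 in sheep sperm. The brains of rats 1 and 4 had the highest shares set aside, and rat sperm libraries 16 and 17 stood apart in listing 7 of the 9 genes at 0. All 6 spermatid genes examined were called higher in sperm than in brain, with a median log2 fold change of 15.28 in rat and 14.03 in sheep. Of all genes tested, 27.7% and 33.1% were called higher. In brain libraries alone 1 of the 6 passed the filter on low counts in each species. The others passed it through sperm and had to differ, so the count of 6 supports nothing by itself. The 6 summed to 183 to 22805 CPM in rat sperm and at most 0.831 in male rat brain. In sheep they summed to 62.3 to 5027 CPM in sperm and at most 35.7 in brain. No gene lengths were used, so a CPM of one gene is not compared with that of another.

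**Figure D1:**
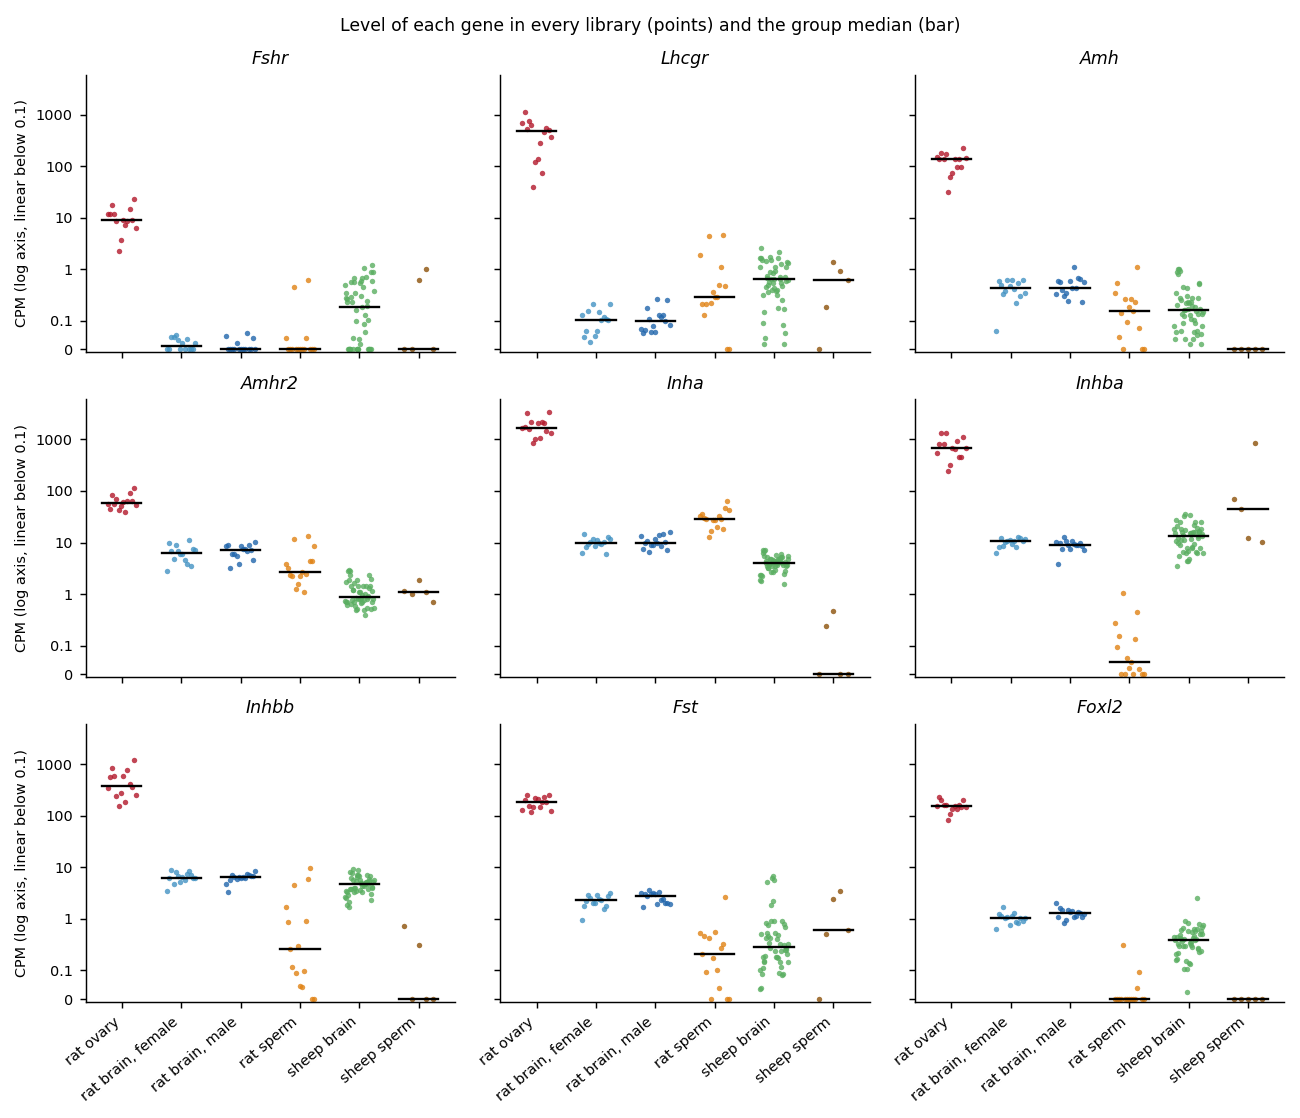
Level of each of the 9 genes in every library (points) with the group median (bar), in CPM on an axis that is logarithmic above 0.1 and linear below; columns are rat ovary, female and male rat brain, rat sperm, 50 sheep brain libraries and 5 sheep sperm libraries. Among the rat groups all 9 genes are highest in ovary, Fshr is at 0 in 18 of 29 rat brains, and Inhba reaches 840 CPM in 1 sheep sperm library.

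All 9 genes were detected in every ovary, and how widely they varied between rats differed by gene. Of the 2 gonadotropin receptors, Lhcgr ran from 40.2 CPM through a median of 486 to 1116, a ratio of highest to lowest of 27.7. The rats at the low end were 21, 25, 22 and 23, with 40.2, 74.0, 122 and 135 CPM, while rats 2, 19 and 1 had 1116, 740 and 703. Fshr ran from 2.22 through 9.05 to 22.7 CPM, a ratio of 10.3, with rat 21 lowest, rat 22 next at 3.70, and rats 28 and 18 highest at 22.7 and 17.7. Against the coefficient of variation (CV, the SD as a share of the mean) of 12446 genes with at least 5 CPM in ovary, whose median was 15.3%, Lhcgr at 68.4% stood at percentile 97.7 and Fshr at 51.8% at percentile 94.5.

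The hormone Amh ran from 31.1 through 139 to 226 CPM and its receptor Amhr2 from 39.2 through 58.4 to 116. Amh was lowest in rats 21, 22 and 23, the rats that were also among the lowest for Lhcgr, and highest in rats 28 and 18. The inhibin alpha subunit Inha ran from 872 through 1676 to 3421 CPM. The beta A subunit Inhba ran from 243 through 676 to 1324 CPM and the beta B subunit Inhbb from 156 through 387 to 1192. Rats 28 and 18 had the highest and second highest value of both Inha and Inhbb, and rats 18, 20 and 28 the highest values of Inhba. The binding protein Fst ran from 121 through 185 to 253 CPM and Foxl2 from 81.6 through 154 to 232, ratios of highest to lowest of 2.09 and 2.85 that were the smallest of the 9. Their CV stood at percentile 77.0 and 75.9 among the same genes.

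The same few ovaries lay at the ends for most genes. Ovary 21 was the lowest for 7 of the 9 and among the 4 lowest for all 9, and ovary 22 was among the 4 lowest for 7. Ovaries 18 and 28 were among the 4 highest for 8 of 9, and ovary 28 was the highest for 5. Other markers differed between these ovaries too. The summed level of 12 further granulosa genes, all detected in every ovary, was 1180 CPM in ovary 21 and 3610 in ovary 18, the ends of its range, and that of 6 luteal genes, also all detected, ran from 10270.5 CPM in ovary 21 to 24715 in ovary 2. The 4 markers of oviduct and of fat around the ovary summed to 912 CPM in ovary 21, 204 in ovary 28 and 20.6 in ovary 18, over a range of 20.6 to 1116 with none at 0. Their part in the levels of the 9 genes was not tested. In bulk tissue, fewer cells of a type and less RNA per cell cannot be told apart.

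**Figure D2:**
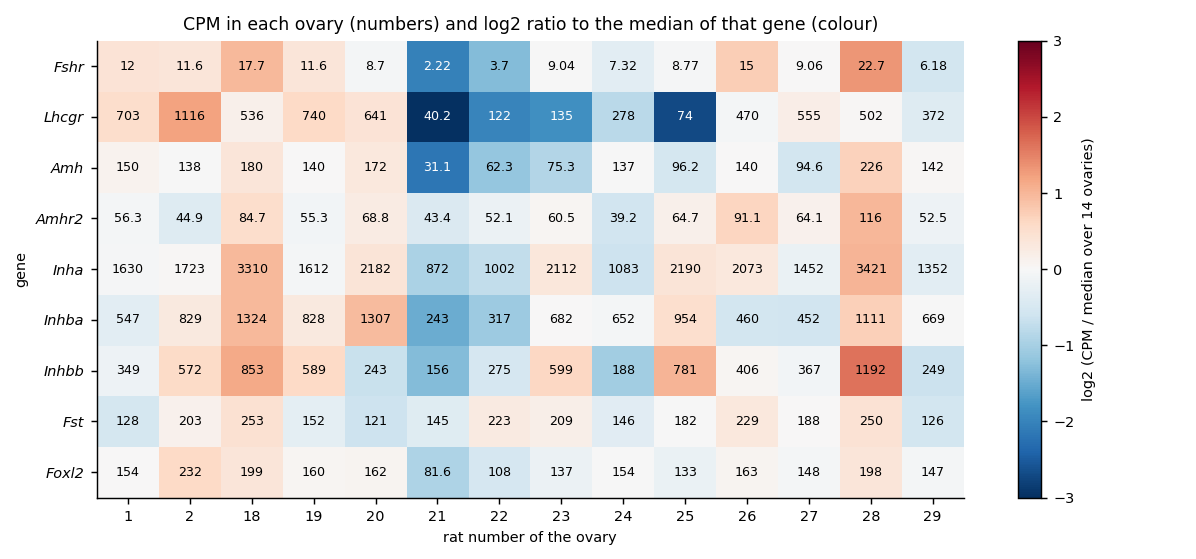
Level of each of the 9 genes (rows) in the ovary of each of 14 rats (columns): the number is CPM and the colour the log2 ratio to the median of that gene over the 14 ovaries. Ovary 21 is the lowest for 7 genes, and Fst and Foxl2 show the palest rows.

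The ovary was set against the brains of the same female rats, and all 9 genes were called higher in ovary (edgeR quasi-likelihood test with Benjamini-Hochberg adjustment over 20801 genes, called at an adjusted p below 0.05 and a log2 fold change of at least 1). Of all genes tested, 27.7% were called higher in ovary and 56.9% in either direction. Amh, Amhr2, Inha, Inhba, Inhbb, Fst and Foxl2 would have passed the filter on low counts in either tissue alone. Fshr and Lhcgr, with 12 and 71 counts over the 14 female brains, passed it only through the ovary, so they had to differ and the count of 9 of 9 supports nothing by itself. The fitted size of their differences rests on those few brain counts. Lhcgr differed by 11.85 ± 0.55 (log2, SE; adjusted p = 6.74e-19; n = 14 and 14) and Fshr by 8.83 ± 0.42. Amh differed by 8.05 ± 0.27, Inha by 7.39 ± 0.22, Foxl2 by 7.07 ± 0.15, Fst by 6.21 ± 0.15, Inhbb by 6.09 ± 0.28 and Inhba by 6.02 ± 0.23. Amhr2 had the smallest difference, 3.19 ± 0.17 (adjusted p = 4.49e-17). No gene overlapped between the groups, which was so, with ovary higher, for 28.8% of all genes tested. The lowest ovary exceeded the highest female brain 3.54-fold for Amhr2, 17.7-fold for Inhbb, 19.1-fold for Inhba, 60.8-fold for Inha and 189-fold for Lhcgr.

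Of 11 receptors for inhibin, activin, bone morphogenetic proteins (BMP) and TGF-beta, 4 were higher in ovary and 2 lower, with a median log2 fold change of 0.70 where the median over all genes was 0.02. Tgfbr2, a TGF-beta receptor, was higher by 3.24, Tgfbr3, the co-receptor betaglycan that binds inhibin, by 3.04, and Bmpr1b by 2.52, while Acvr1c and Acvr1b, type I receptors that carry activin signals, fell by 2.89 and 1.96 on the log2 scale. The SMAD proteins carry these signals to the nucleus, except Smad6 and Smad7, which inhibit them. Of the 8 SMADs, 3 were higher (Smad6 by 2.95, Smad9 by 1.69, Smad4 by 1.50) and 0 lower, with a median of 0.76. The other 5 SMADs were not called. Of 10 tested follistatin relatives and further ligands, 6 were higher and 2 lower, with a median of 1.88: the oocyte factor Gdf9 was higher by 5.54, Fstl3, a second activin-binding protein, by 4.47 and Bmp2 by 3.53, and Fstl5 and Fstl4 fell by 8.90 and 7.04. Of 12 other granulosa genes 10 were higher and 0 lower, with a median of 6.75, among them the transcription factors Gata4 (12.85), Wt1 (10.80) and Nr5a2 (10.05). Only 7 of these 12 passed the filter on low counts in the test of female against male brains. The others passed it here through the ovary and had to differ, so the count and the median support nothing by themselves.

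Across the 14 ovaries the levels of the 9 genes were mostly positively correlated, though few pairs passed the test. Of the 36 pairs, 35 had a positive Pearson correlation of log2(TMM-scaled CPM + 1), r ran from -0.02 to 0.88 with a median of 0.66, and 6 passed an adjusted p below 0.05 against both genes (two-sided permutation test, 100000 resamples, Benjamini-Hochberg over 17656 genes tested against each). The shares of all genes that passed against a given member are the background: 9.71% for Lhcgr, 5.6% for Foxl2, 5.49% for Amh, 4.89% for Fshr, 0.782% for Amhr2, 0.385% for Inha, 0.125% for Inhbb, and 0 for Inhba and Fst. All 6 pairs lay among the receptors Fshr and Lhcgr, the hormone genes Amh and Inha, and Foxl2. With rank correlation none of the 36 passed, and none passed once the 2 ovaries farthest from the median of the first gene were left out, a count also lowered by the smaller n.

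The pair Amh and Foxl2 had r = 0.88 (adjusted permutation p = 0.0128; Spearman rho 0.78; r without the 2 farthest ovaries 0.64). Fshr had r = 0.87 with Inha (adjusted permutation p = 0.0334; rho 0.71; 0.76 without 2), 0.85 with Foxl2 (adjusted permutation p = 0.0228; rho 0.76; 0.71) and 0.85 with Amh (adjusted permutation p = 0.0191; rho 0.60; 0.63). Lhcgr had r = 0.84 with Foxl2 (adjusted permutation p = 0.0119; rho 0.67; 0.76 without 2) and 0.81 with Amh (adjusted permutation p = 0.0266; rho 0.58; 0.70). Each of these 6 stayed positive without the 2 farthest ovaries, with r between 0.63 and 0.76. The receptor Amhr2 went most with Inha (r = 0.83, rho 0.82, 0.81 without 2; adjusted permutation p = 0.0610), and Inha also with Inhbb (0.83) and Inhba (0.80), none of which passed. The lowest correlations were those of Fst, whose r was -0.02 with Lhcgr, 0.07 with Amh and 0.07 with Inhba. The correlation of the 9 genes with the total count of the library ran from -0.22 to 0.39, and with the share of counts set aside from -0.12 to 0.22.

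**Figure D3:**
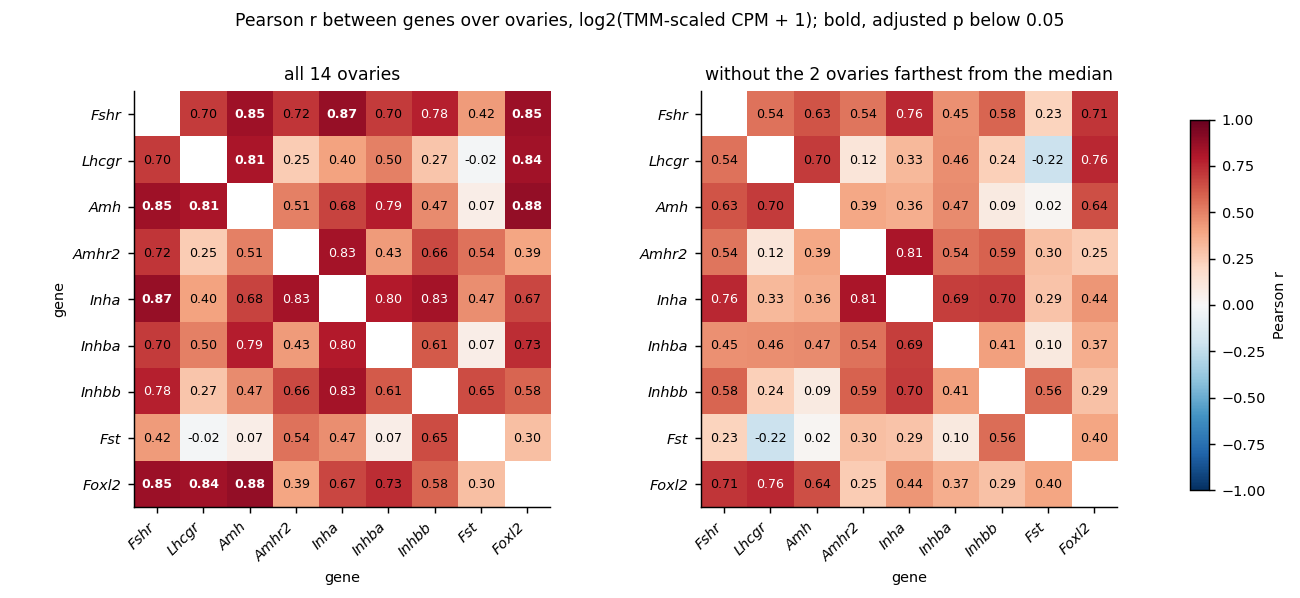
Pearson r between each pair of the 9 genes on log2(TMM-scaled CPM + 1), over all 14 ovaries (left) and without the 2 ovaries farthest from the median of the first gene (right); bold marks an adjusted p below 0.05. The 6 bold pairs join Fshr, Lhcgr, Amh, Inha and Foxl2, and no pair on the right is bold.

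The genes whose level over the ovaries was most like that of each member, by Pearson r among genes with a mean of at least 5 CPM, gave 3 per member, with r from 0.88 to 0.98, rho from 0.69 to 0.97 and r without 2 ovaries from 0.79 to 0.96. Nearest to Fshr were Plekhd1 (r 0.98), Hsd17b1, an enzyme that makes oestradiol from oestrone (0.96), and Ihh, a hedgehog ligand made by granulosa cells (0.94). Nearest to Lhcgr were Mfsd13a, Prlr, the prolactin receptor (0.94, rho 0.69, 0.90 without 2), and Slc6a7. Nearest to Amh were Tmx4, Gtf2a2 and Alg10. Nearest to Amhr2 was Bambi, a decoy receptor of the TGF-beta family (0.96, rho 0.94, 0.95 without 2), then Spsb4 and Mgat4b. Among the nearest to Inha were Plxnc1 and Arid2, and nearest to Inhba were Zfp280b, Tox and Ubqln2. Nearest to Inhbb were Ccnf, Mgat5 and Arhgap19, nearest to Fst were Sbk1, Csrnp2 and Nr5a2, and nearest to Foxl2 were Ppp1r9a, Sema7a and Cbfa2t3. The genes nearest to Inhba (adjusted permutation p from 0.0883 to 0.118) and to Fst (from 0.0589 to 0.110) did not pass the test, and those nearest to the other 7 members did.

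Correlations with genes of the fixed lists that passed were 39 positive and 11 negative, over the 9 members. With rank correlation 11 and 1 passed, and without the 2 farthest ovaries 1 and 0, the latter with a smaller n. As background for these and the counts below, 9.71% of all genes passed with Lhcgr, 5.6% with Foxl2, 5.49% with Amh and 4.89% with Fshr. The shares were 0.782% with Amhr2 and 0.385% with Inha. The totals are not read as an excess over these shares. Over all 17656 genes, rank correlation took the number that passed from 1715 to 0 with Lhcgr, 138 to 0 with Amhr2 and 22 to 0 with Inhbb. It fell from 970 to 4 with Amh, 68 to 4 with Inha and 989 to 256 with Foxl2. With Fshr it rose from 863 to 1134. Without the 2 farthest ovaries 18 passed with Fshr, 19 with Foxl2 and 0 with each of the other 7. The values that follow are those over all 14 ovaries.

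Among 12 other granulosa genes, 5 passed with Fshr, 5 with Amh, 3 with Inha, 3 with Foxl2 and 1 with Amhr2, all positive. With Fshr these included Serpine2, a protease inhibitor (r 0.93), Esr2, the oestrogen receptor beta (0.82), and Gja1, the gap junction protein connexin 43 (0.80). Of 6 luteal genes, 3 passed with Lhcgr, all positive: Prlr, Cyp11a1, the enzyme of the first step of steroid synthesis (0.74), and Scarb1, a lipoprotein receptor that imports cholesterol (0.73). Luteal genes also passed with Amh, namely Prlr (0.79) and Hsd3b1 (0.78), an enzyme of progesterone synthesis, and with Foxl2, namely Prlr (0.84) and Scarb1 (0.80). The theca enzyme Cyp17a1 had r = 0.88 with Lhcgr, 0.81 with Amh and 0.74 with Foxl2. Receptors for bone morphogenetic proteins passed with Fshr (Bmpr1b, r 0.86, rho 0.93, 0.87 without 2) and with Amh (Bmpr2, 0.92, rho 0.92, 0.85). Bmpr2 also passed with Foxl2 (0.79, rho 0.75, 0.79 without 2) and with Lhcgr (0.71, rho 0.43, 0.49). Nr5a1, a regulator of steroid enzymes, had r = 0.90 with Amh (rho 0.94, 0.83 without 2). The 11 negative correlations that passed were those of 4 genes. Fstl3 passed with Amh (-0.87), Lhcgr (-0.86, rho -0.52, -0.77 without 2) and Foxl2 (-0.71, rho -0.43, -0.71). Bmp7, a BMP ligand, passed with Lhcgr (-0.85, rho -0.66, -0.76), Amh (-0.79, rho -0.53, -0.56) and Foxl2 (-0.78, rho -0.60, -0.54). The prostaglandin synthase Ptgs2 passed with Fshr (-0.73, rho -0.75, -0.63), and Rgs2, a regulator of G protein signals that luteinizing hormone induces, passed with Foxl2 (-0.87, rho -0.81, -0.79), Lhcgr (-0.83), Amh (-0.80) and Fshr (-0.75). These correlations share the 14 libraries and their normalisation.

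In rat brain the receptors for gonadotropins were at the edge of detection. Fshr had 20 counts in all over 29 brains, with 18 brains at 0 and a highest value of 0.0585 CPM. Lhcgr had 151 counts, from 0.0255 through a median of 0.105 to 0.269 CPM, with no brain at 0. Amh had 617 counts, from 0.0638 through 0.441 to 1.10 CPM. The other 6 were detected in every brain. Amhr2 ran from 2.74 through 6.85 to 11.1 CPM, Inha from 6.02 through 9.70 to 16.2, Inhba from 3.90 through 9.69 to 12.7, Inhbb from 3.37 through 6.38 to 8.83, Fst from 0.957 through 2.40 to 3.68 and Foxl2 from 0.638 through 1.13 to 2.05. The summed level of 10 pituitary genes in the same libraries ran from 0.731 through 4.92 to 73.7 CPM in female and from 0.622 through 1.78 to 57.8 CPM in male brains, and its part in these levels was not tested.

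No difference between female and male brains passed the test for these genes. Of 20570 genes tested by edgeR, 37 (0.18%) passed an adjusted p below 0.05, and 0 of the 7 members tested did. Fshr and Lhcgr were too low to be tested. At an unadjusted p below 0.05 there was 1, Inhba, 0.29 ± 0.09 higher in females on the log2 scale (edgeR p = 0.00303, adjusted p = 0.219), and DESeq2 called 0 of the members. The 95% intervals of the log2 difference, female minus male, were -0.22 to 0.25 for Inha, -0.04 to 0.27 for Inhbb, -0.40 to 0.06 for Fst, -0.48 to 0.03 for Foxl2, -0.40 to 0.30 for Amhr2 and -0.52 to 0.30 for Amh. No correlation between a rat's ovary level and its brain level passed either. Over the 14 females 0 of 7 members and 0 of 15680 genes passed (permutation test), 0 members had an unadjusted p below 0.05, and the correlation farthest from 0 was that of Inhba (r = -0.45, permutation p = 0.110).

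Among the 10 pairs of the 5 members with at least 1 CPM that were set against each other over the 29 brains, 1 passed, Amhr2 with Inha (r = 0.60, rho 0.68, 0.62 without the 2 farthest; adjusted permutation p = 0.00858). In these libraries 17% of all 20569 genes passed with Amhr2 and 38.9% with Inha, so nothing particular to the pair is read from it. The genes most like a member there, again 3 for each with at least 1 CPM, had r from 0.68 to 0.96, rho from 0.60 to 0.93 and r without 2 brains from 0.63 to 0.94. Apela, a peptide hormone gene, was nearest to Amhr2 (0.96), followed by Shf and St14. Trmt1, a tRNA methyltransferase, was nearest to Inha (0.92), Cop1 to Inhba, P2rx6 to Inhbb and Ngef to Fst. Of the 3 genes nearest to Inhba and of the 3 nearest to Inhbb 2 each passed the test.

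In rat sperm Inha was the member that was higher than in the brains of the same males. It ran from 12.6 through 28.8 to 62.5 CPM in 15 sperm samples, and the log2 difference from male brain was 1.88 ± 0.17 (edgeR adjusted p = 9.34e-12). Of 20480 genes, 27.7% were called higher in sperm and 31.5% lower, beside 1 and 4 of the 7 members tested. Inhba, from 0 through 0.0416 to 1.03 CPM, fell by 5.47 (SE 0.63), and Foxl2, with 21 counts over all 15 samples, fell by 4.97 (SE 0.64), both without overlap between groups, as were 22.1% of all genes in that direction. Fst, from 0 through 0.211 to 2.697 CPM, fell by 2.33 (SE 0.55), and Inhbb, from 0 through 0.259 to 9.58 CPM, fell by 1.57 (SE 0.68, edgeR adjusted p = 0.0361). Amh, from 0 through 0.155 to 1.09 CPM, and Amhr2, from 1.11 through 2.68 to 13.2 CPM, were not called (-0.67 and -0.39). The 4 members called lower passed the filter on low counts only through brain. Fshr, from 0 through 0 to 0.622 CPM, and Lhcgr, from 0 through 0.296 to 4.61 CPM, were below the count filter; without it both were called higher than in brain, Lhcgr by 3.36 and Fshr by 2.702 (edgeR adjusted p = 0.0156), the latter from 58 counts in sperm, most of them in libraries 7 and 14, and 8 in brain. With the animal as a block Amh was called, at -1.32 (edgeR adjusted p = 0.0311), and Inhbb stood at -3.82. The same samples held blood markers: all 5 were higher in sperm than in brain, their sum ran from 1534 to 54551 CPM against 435 to 2079 in male brain, and their part in these differences was not tested.

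Libraries 7 and 14 differed from the other 13 sperm samples in the gonadotropin receptors. Lhcgr was 4.36 and 4.61 CPM in them and at most 1.88 in the others, and Fshr was 0.462 and 0.622 CPM against at most 0.0400. Amhr2 was 11.6 and 13.2 CPM against at most 8.75, while Inha was 12.6 and 17.9 CPM, low among 12.6 to 62.5. Of 6 markers of Sertoli and Leydig cells, the testis cells known to carry these receptors, 4 were also above the others there: Cldn11 at 27.3 and 35.5 CPM (at most 6.41 elsewhere), Dmrt1 at 1.39 and 3.47 (0.365), Dhh at 3.02 and 1.79 (0.921) and Insl3 at 4.29 and 1.15 (0.661). Sox9 (3.92 and 5.27, others up to 6.53) and Rhox5 (0.947 and 2.88, others 0.921 to 39.3) were not. The sum of the 6 ran from 7.32 to 50.02 CPM over the sperm samples, and the spermatid gene Tnp2 was also highest in the same libraries, at 4796 and 5582 CPM against at most 1711. Their part in the receptor levels was not tested. Without libraries 7 and 14, Inha was at 2.00 and Inhbb fell by 2.14, and Amh (-0.99, edgeR adjusted p = 0.0219) and Amhr2 (-0.89, edgeR adjusted p = 0.000993) passed the adjusted p but not the log2 limit of 1.

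**Figure D4:**
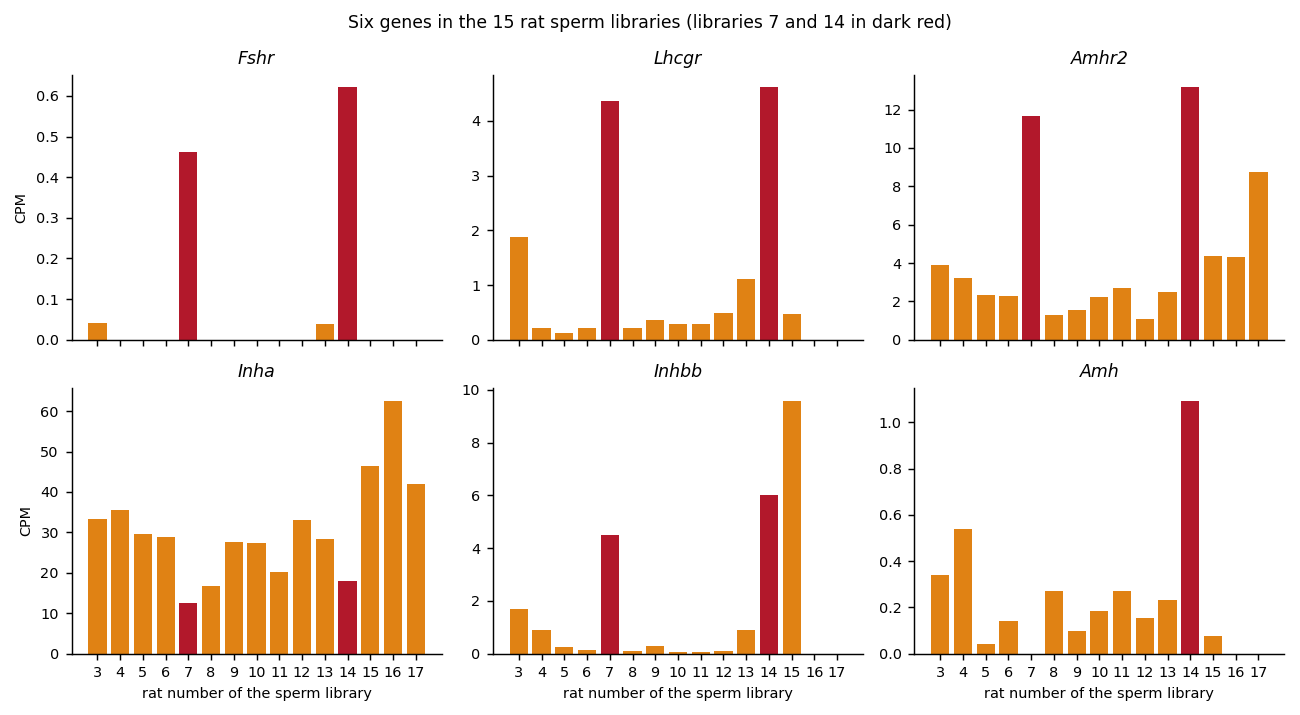
Level in CPM (bars, axis from 0) of Fshr, Lhcgr, Amhr2, Inha, Inhbb and Amh in the sperm library of each of 15 male rats; libraries 7 and 14 are dark red. Fshr, Lhcgr and Amhr2 are highest in libraries 7 and 14, and Inhbb is highest in library 15 at 9.58 CPM.

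Set against the ovary, all 9 genes were called lower in rat sperm (19611 genes tested, 27.9% called higher in ovary by edgeR). Amhr2 and Inha would have passed the filter on low counts in either tissue alone. The other 7 passed it only through the ovary, so they had to differ, and the count of 9 supports nothing by itself. None overlapped between the 14 ovaries and the 15 sperm samples, as was so for 23.7% of all genes with ovary higher; the lowest ovary exceeded the highest sperm sample 2.98-fold for Amhr2, 3.57-fold for Fshr, 8.72-fold for Lhcgr and 13.9-fold for Inha. The log2 difference was 11.79 ± 0.58 for Foxl2, 11.74 ± 0.70 for Inhba and 8.66 ± 0.53 for Amh. It was 8.40 ± 0.60 for Fst, 8.39 ± 0.78 for Lhcgr, 7.78 ± 0.87 for Inhbb and 6.54 ± 0.86 for Fshr. Inha at 5.59 ± 0.24 and Amhr2 at 3.53 ± 0.34 differed least. Both comparisons of the ovary share its 14 libraries. Of the pathway in sperm against male brain, 1 of 11 receptors was higher and 4 lower (median -0.03, equal to the -0.03 over all genes), 2 of 8 SMADs were higher and 2 lower, and of 8 tested follistatin relatives and further ligands 2 were higher and 5 lower (median -2.13). Among 8 tested granulosa genes Ihh was higher, by 4.91, and 4 were lower, including Serpine2 and Gja1, which fell by 6.84 and 5.53.

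In the sheep brain all 9 genes were detected. AMH, AMHR2 and INHA were highest in the cerebellum and FST in the hippocampus. Over 50 libraries INHBA ran from 3.44 through a median of 13.5 to 35.3 CPM, INHBB from 1.73 through 4.74 to 9.25, INHA from 1.59 through 4.04 to 7.30 and AMHR2 from 0.385 through 0.870 to 2.96. LHCGR ran from 0.0187 through 0.636 to 2.64 CPM, FOXL2 from 0.0236 through 0.396 to 2.49, FST from 0.0364 through 0.290 to 6.79, FSHR from 0 through 0.188 to 1.23 and AMH from 0.0196 through 0.161 to 1.01. Each region was then tested against the mean of the other 9 by edgeR (adjusted p below 0.05 over 21147 genes). The regions differed widely in how many genes passed, 60.7% in CB, 48.3% in the pons, 27.6% in BG, 11% in Hip, 10.4% in PPC, 7.85% in FC, 6.31% in PC, 5.65% in VC, 3.55% in MC and 3.36% in EC, and the calls below are read against these shares. Of the 9 members, all tested in every region, 6 were called in CB, 4 in BG, 3 each in Hip, PPC and the pons, and 1 each in EC, FC, MC, PC and VC.

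AMH and its receptor were both highest in CB. AMH was 0.892, 0.993, 0.801, 1.01 and 0.938 CPM in the CB of sheep 687, 688, 690, 694 and 699, above every value of the other 9 regions, whose highest was 0.532. The difference was 2.32 ± 0.32 (log2, edgeR adjusted p = 2.66e-08). AMHR2 was 2.77, 2.96, 1.91, 2.80 and 2.37 CPM in CB, the highest region of all 5 sheep (1.22 ± 0.23, edgeR adjusted p = 1.46e-05), and was also raised in the pons (0.66 ± 0.24), a call that was lost without sheep 690 or sheep 699. INHA was 6.17, 7.06, 5.39, 6.72 and 7.30 CPM in CB, again the highest region in 5 of 5 sheep (0.61 ± 0.13), and was higher in PPC by 0.54 and fell by 0.76 in BG and by 0.49 in the pons, the last not without sheep 690.

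FST was highest in the hippocampus, at 1.84, 6.32, 2.23, 6.79 and 0.905 CPM, and Hip was the highest region of 4 of 5 sheep (3.10 ± 0.42, edgeR adjusted p = 1.42e-06). In EC, FST was 5.29 CPM in sheep 694 and 0.424 to 0.817 in the others. Its difference there of 1.67 (edgeR adjusted p = 0.0354) became 0.55 without that sheep and 1.45 with the animal as a block (edgeR adjusted p = 0.104), and was called in neither. FST in CB was 0.110 to 0.191 CPM and fell by 1.97. INHBA, whose product FST binds, was 6.20, 7.83, 4.32, 6.98 and 4.34 CPM in Hip and fell by 1.46 (SE 0.37), a call lost without sheep 690. INHBB in Hip was 6.56, 7.12, 7.01, 8.88 and 6.83 CPM, higher by 0.56 (edgeR adjusted p = 0.0399) and not called without sheep 687, 688 or 690. INHBB also fell in BG by 0.60, not without 690 or 699, and in CB by 0.58, not without 687, 688 or 690 and not with plain library totals.

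Both gonadotropin receptors were low, with their highest medians in the forebrain. LHCGR was 1.64, 1.11, 2.64, 1.67 and 1.49 CPM in BG (1.87 ± 0.35, edgeR adjusted p = 4.62e-05) and fell by 2.73 in CB, where it was 0.0194 to 0.316 CPM, and by 1.85 in the pons. FSHR was 0.904, 0.597, 1.23, 0.888 and 0.382 CPM in VC, the highest region in 4 of 5 sheep. FSHR had 0 counts in all 5 CB and all 5 pons libraries and 2 counts in Hip. VC was at least 71.2-fold higher than CB and at least 67.6-fold higher than the pons, taking 3 counts over the group of 5 as the limit that a count of 0 allows. FSHR was also called higher in PC, BG, FC, MC and PPC, and its fitted log2 differences there depend on the regions at 0. Leaving out 1 sheep ended the call in PC (690), FC (688), and MC and PPC (688, 690 or 694), and left those in VC and BG. FOXL2 was called higher in PPC alone, by 1.42, with 2.49 CPM in sheep 694 and at most 0.628 in the others. Without sheep 694 it was 0.61 (edgeR adjusted p = 0.396).

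When the regions were ordered by median, few neighbours in that order were apart beyond their spread: 1 of 9 neighbouring pairs for FSHR, LHCGR and AMH each and 0 of 9 for the other genes. Of the 11 receptors for inhibin, activin, BMP and TGF-beta, 2 were called higher and 3 lower in CB, a share below the 60.7% of all genes, and 2 higher and 3 lower in the pons, where it was 48.3%. In Hip 4 were higher and in BG 1 was higher and 2 lower. ACVR1C, an activin receptor, was higher in BG by 2.22 and in Hip by 1.28 and fell by 3.53 in CB.

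**Figure D5:**
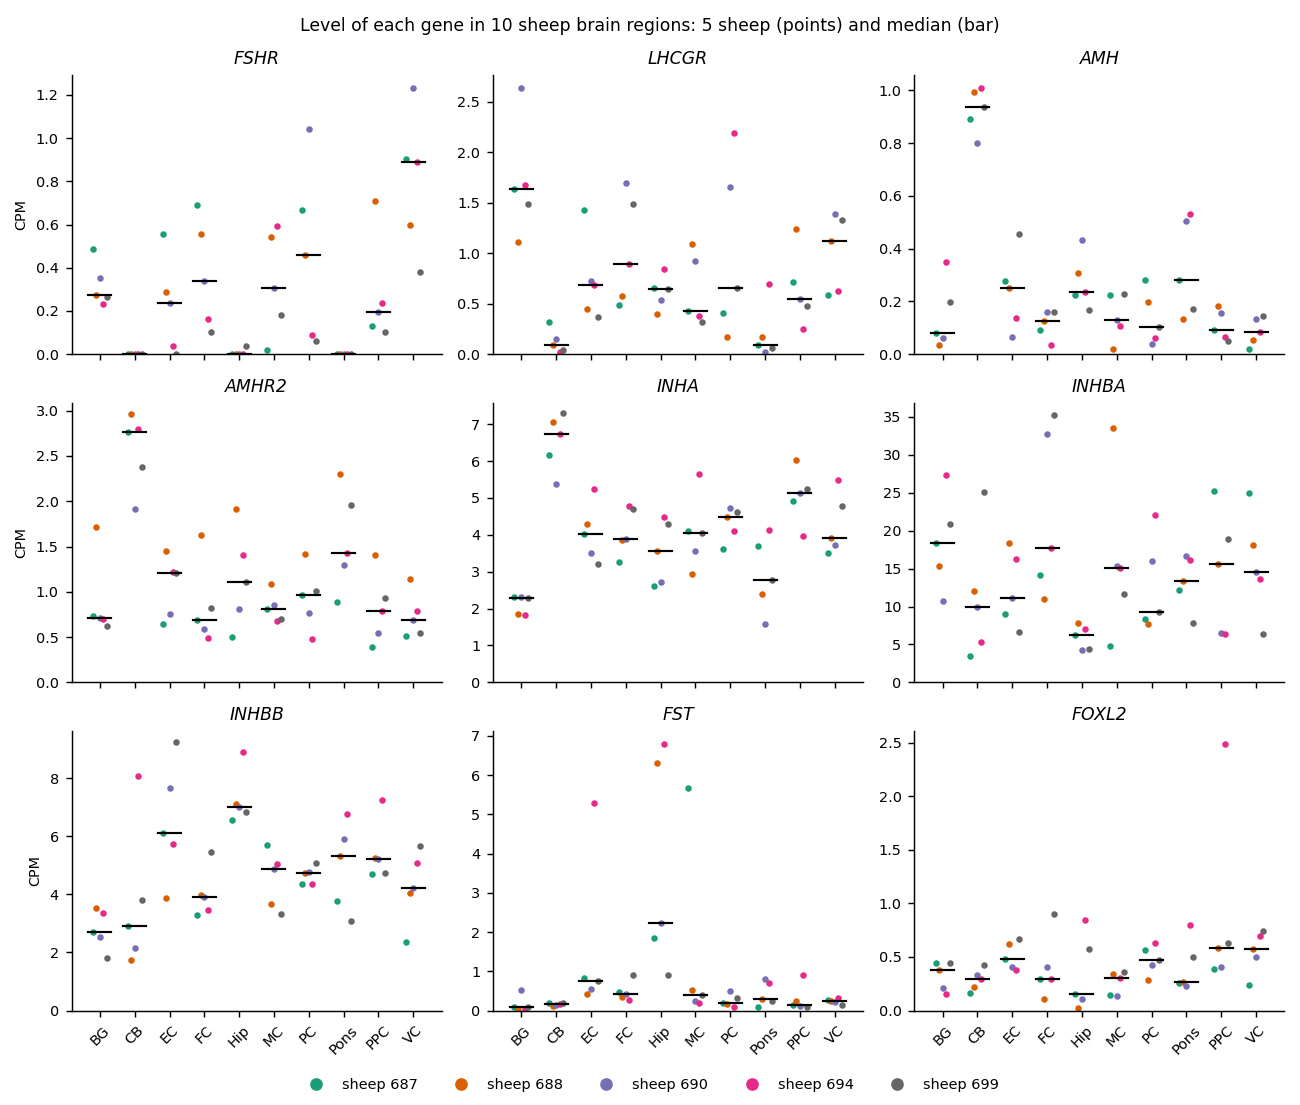
Level in CPM of each of the 9 genes in 10 sheep brain regions, with 1 point per sheep (colour) and a bar at the median of 5 sheep; axes start at 0. AMH is between 0.801 and 1.01 in CB and at most 0.532 elsewhere, FST is highest in Hip with single high libraries in EC and MC, and FSHR is at 0 in CB and the pons.

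In sheep sperm INHBA was the member with the largest difference above brain. It was 70.8, 44.9, 12.1, 840 and 10.1 CPM in the sperm of sheep 687, 688, 690, 694 and 699, and INHA, the subunit it pairs with in inhibin, was 0, 0.236, 0.465, 0 and 0 CPM, from 12 counts. Against the mean of the 10 brain regions INHBA was higher by 4.68 ± 0.32 (edgeR adjusted p = 5.47e-19) and by 2.72 without sheep 694. The mean of INHBA was 196 CPM in sperm and 14.2 CPM over the 50 brain libraries, with medians of 44.9 and 13.5 CPM. The fitted size exceeds that of these means. With plain library totals the medians were 10.5 and 12.4 CPM. In sheep 690 and 699 the sperm values of INHBA lay within the brain range of 3.44 to 35.3 CPM. INHA fell by 3.40 (SE 0.39). Of 21859 genes 33.1% were called higher in sperm and 41.1% lower, beside 4 and 4 of the 9 members. INHBA passed the filter on low counts in sperm itself, and the other 8 passed it only through brain regions. INHBB, at 0.725, 0, 0.310, 0 and 0 CPM, fell by 3.90 (SE 0.47). AMH and FOXL2 had 0 counts in all 5 samples, so they were at least 6.45-fold and at least 11.5-fold lower than in brain. FST was 0, 0.498, 2.48, 3.42 and 0.609 CPM (2.59 ± 0.55) and FSHR 0, 0, 0.620, 1.03 and 0 CPM, 16 counts in all. The mean of FSHR was 0.329 CPM in sperm and 0.279 CPM over the 50 brain libraries, with medians of 0 and 0.188. Its fitted log2 difference of 2.56 ± 0.75 is from the mean of the regions on a log scale, in which CB and the pons had 0 counts, so its size is not a measure of the CPM. FSHR was not called without sheep 694 (1.08, edgeR adjusted p = 0.251).

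AMHR2 was 1.14, 1.02, 1.86, 1.11 and 0.696 CPM in sheep sperm, with a mean of 1.17 CPM against 1.14 over the 50 brain libraries. The TMM-scaled fit called it higher by 1.34 ± 0.28, a difference not seen in these means, and it was at -1.05 when library totals were left plain. That scaling moved the median of all genes from -0.42 to -2.84, and relative to that median AMHR2 stood at 1.76 and 1.78. LHCGR, at 0, 0.184, 1.40, 0.940 and 0.609 CPM with a mean of 0.625 against 0.771 in brain, was not called (1.00 ± 0.52, edgeR adjusted p = 0.0706) and was at -1.32 with plain totals, under which FST (0.35) and FSHR (0.40) also were not called. Over all genes called, 7239 were higher and 8976 lower, against 3249 and 15084 with plain totals. In the pathway, 1 of 11 receptors was higher and 7 lower (median -1.59), against 0 and 10 with plain totals, and 3 of 10 follistatin relatives and further ligands were higher and 6 lower, among them BMP2 higher by 8.10. Of 10 genes that luteinizing hormone induces at ovulation, 7 were higher and 1 lower (median 3.50), against 5 and 4 with plain totals. These included the growth factor AREG, higher by 10.23, and PTX3, a matrix protein, by 7.53. The 8 immediate early genes examined, which many cells switch on within minutes of a stimulus, summed to 404 to 2603 CPM in sheep sperm against 50.7 to 516 in brain, and their part was not tested.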

How the data were processed

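RNA of 58 rat and 55 sheep samples was sequenced as 150-base paired reads from stranded mRNA libraries. Per the labels' design text, the authors trimmed reads with Trimmomatic 0.39, aligned them with STAR 2.7.5a to GRCr8 (rat) or ARS-UI_Ramb_v3.0 (sheep) and counted them per gene with Rsubread 2.20.0. The deposited files hold these raw counts; the strand setting of the counting is not given in the sources used here. Abundant ribosomal entries can take most of a library and so shift every plain CPM; levels were therefore computed on the remaining counts, a choice made after the data were seen.

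Differences were tested with edgeR 4.0.16 (quasi-likelihood, TMM factors, filterByExpr by group, Benjamini-Hochberg over all genes tested) in R 4.3.3. A gene was called where its adjusted p was below 0.05; between tissues its log2 fold change also had to reach 1 in size. The sheep libraries shared 1 fit. Correlations used log2(TMM-scaled CPM + 1) with 100000 permutations, whose smallest p is 1e-05. Alternatives were RLE size factors, plain totals, no low-count filter, DESeq2 1.42.0, the animal as a block, libraries or sheep left out, a pseudocount of 0.1 and rank correlation; code was tested on simulated data. Intervals are 95% intervals from the SE under a normal distribution and cover the spread between libraries.

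The 9 genes and the gene lists were chosen with earlier results of these data known. All 9 were named in every comparison. From each list of 15, called genes were counted, with 2 to 4 examples of the largest fold change among those with at least 10 CPM in the higher group, and the 3 genes most like each member were named, except 1 that is not reported here. Other genes named beside rat sperm libraries 7 and 14 and in ovary correlations were chosen after their values were seen. The same animal number in the labels pairs tissues. Paired deviations from the group means correlated above 0.1 in 3 of 14 ovary and brain pairs, 4 of 15 sperm and brain pairs and 135 of 225 sheep pairs. No 2 libraries agreed within counting noise. Sequences and positions are from RefSeq tables of GRCr8; Fst and Foxl2 promoters and all protein sequences were not used here.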

Additional observations from a re-analysis of the deposited data

Results flagged for a closer look

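In 13 of 99 sets of 5 sheep values, 1 sheep lay apart from the other 4 by more than the 95% critical value of Dixon's ratio, which chance alone flags in about 1 of 20 sets. Sheep 694 was the one apart in 7 of them. Its sperm held 840 CPM of INHBA, where the next sheep had 70.8. It also held 8.88 CPM of INHBB in Hip, 7.24 CPM of INHBB in PPC, 5.29 CPM of FST in EC, 0.903 CPM of FST in PPC and 2.49 CPM of FOXL2 in PPC. Its pons held 0.696 CPM of LHCGR, where the next sheep had 0.171. Sheep 688 had 0.711 CPM of FSHR in PPC, 1.71 CPM of AMHR2 in BG and 1.63 CPM of AMHR2 in FC. Sheep 687 had 5.67 CPM of FST in MC, with at most 0.524 in the others, and sheep 690 had 0.520 CPM of FST in BG. The value of 0.0369 CPM of FSHR in the Hip of sheep 699 rests on 2 counts, the other 4 being at 0.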

How the results depend on the processing

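All 9 genes were called higher in ovary than in brain and than in sperm under every alternative run for those comparisons. Without the low-count filter the genes called rose from 11832 to 18799 (ovary against brain), from 12111 to 22067 (rat sperm against brain) and from 9971 to 19449 (ovary against sperm). In rat sperm the members called higher were 1, but 3 without the filter, 2 with DESeq2, 2 without sperm libraries 16 and 17 and 2 without brains 1 and 4, where Lhcgr entered the test (3.36, 3.34, 3.58 and 3.36). Between female and male brains 37 genes were called, against 18 with plain totals, 136 with DESeq2 and 74 without brains 1 and 4. In sheep sperm 4 members were called higher, against 1 with plain totals, where AMHR2 (-1.05) and LHCGR (-1.32) reversed. Leaving out 1 sheep at a time gave 3 to 5 members higher and 4 lower and 15940 to 16329 genes called in sheep sperm, and 12 to 15 higher and 5 to 8 lower calls of members over the regions; the lowest of these, 5, was without sheep 690. The 6 correlated pairs became 0 with rank correlation and 0 without the 2 farthest ovaries. The cause was not tested for any of these.

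With the animal as a replicate block, Amh in rat sperm was called at -1.32, Inhbb moved from -1.57 to -3.82, and the call of FST in sheep EC was lost (1.45). No other call of a member changed. Plain totals also moved the share of called genes that were higher, from 52.9% to 21.0% in BG, 47.9% to 62.4% in CB, 73.0% to 86.2% in FC, 65.1% to 89.4% in Hip, 68.3% to 51.6% in PC, 76.7% to 34.4% in PPC, 83.3% to 69.4% in VC and 45.9% to 22.2% in female against male brain. Of values for single genes and pairs, 1437 kept direction and side of the threshold, 17 passed it newly, 42 no longer passed it and 2 levels moved by more than 1 SD: AMHR2 in sheep sperm (0.440 CPM with plain totals) and Inhba in female brain (8.43). Depth limits Fshr, Lhcgr and Amh in rat brain, and FSHR, INHA and INHBB in sheep sperm, to a few counts per library.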
